A study of Mus musculus with 8 samples.

Results

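RNA of the variable (V) segments of the immunoglobulin light chains was examined in fractions of purified endogenous CD8+ T cells from mice. The segments were taken as every entry of the expression table whose gene symbol is Igkv (kappa) or Iglv (lambda) followed by a digit, which gave 160 Igkv and 3 Iglv entries, or 163 of 47493 entries in all. The 8 libraries came from 4 female C57BL/6 mice aged 6 to 8 weeks at inoculation, and every library carries the same treatment. Each mouse received 200000 B16F10 melanoma cells intradermally on day 0, cyclophosphamide at 300 mg/kg on day 3, 2000000 Pmel-1 cells from Thy1.1 T-cell-receptor transgenic mice on day 5 and 10000 IU of human IL-2 daily for 3 days. Anti-CD4 antibody (clone GK1.5, 200 μg) followed weekly from day 10, and inguinal lymph nodes and spleen were taken on day 25. From each mouse, CD8+ T cells lacking Thy1.1, which are those of the host, were purified on magnetic beads in a kit for CD8 cells and by removal of Thy1.1 cells. Antibody against IL-18Rα coupled to PE, with beads that bind PE, then split them into an IL-18Rα hi-enriched fraction and the flow-through of the column, with n = 4 libraries of each, and libraries 1 to 4 of the fractions are called mice 1 to 4 by their number. No group without anti-CD4 and no purified B-lineage cells are among these libraries.

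An immunoglobulin light chain is assembled in a developing B cell by joining 1 V segment to 1 joining (J) segment, and the joined exon is then spliced to a constant (C) exon. A B cell and its offspring carry the same joined V segment, so that the mix of V segments in RNA reflects which B-lineage cells contribute and how much RNA each of them makes. Plasma cells, which secrete antibody, hold far more light-chain RNA per cell than resting B cells, and T cells do not assemble light chains. In bulk RNA, fewer cells of a type and less RNA per cell cannot be told apart.

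The 4 Igkv segments with the highest mean share of the summed Igkv FPKM (sequenced fragments scaled by transcript length and by the depth of the library) are shown by the germline end of their V exon, which is the part that enters the antigen-binding loop CDR3. The sequences are the transcripts of GENCODE release M21 on GRCm38 (mm10), written 5′ to 3′, and capitals mark the bases from the codon of the conserved cysteine to the end of the exon.
Igkv5-39 (chr6:69900424-69900501, minus strand): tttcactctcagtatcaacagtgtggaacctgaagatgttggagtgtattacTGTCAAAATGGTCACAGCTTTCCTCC
Igkv14-126 (chr6:67896565-67896642, plus strand): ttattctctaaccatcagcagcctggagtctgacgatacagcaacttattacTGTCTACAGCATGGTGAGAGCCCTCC
Igkv1-117 (chr6:68121750-68121827, plus strand): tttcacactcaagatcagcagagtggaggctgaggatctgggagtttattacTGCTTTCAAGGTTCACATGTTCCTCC
Igkv1-110 (chr6:68271190-68271267, plus strand): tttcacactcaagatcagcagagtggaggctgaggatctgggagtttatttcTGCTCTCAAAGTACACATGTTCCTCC

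The next 6 segments carry the differences between mice described here, and are printed in the same way.
Igkv3-2 (chr6:70698990-70699067, plus strand): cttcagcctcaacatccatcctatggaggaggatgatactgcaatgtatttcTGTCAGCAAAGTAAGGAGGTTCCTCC
Igkv3-1 (chr6:70704100-70704177, plus strand): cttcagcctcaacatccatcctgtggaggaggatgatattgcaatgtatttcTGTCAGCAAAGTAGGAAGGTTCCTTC
Igkv16-104 (chr6:68425995-68426072, plus strand): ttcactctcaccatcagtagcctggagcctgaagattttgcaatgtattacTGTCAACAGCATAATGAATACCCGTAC
Igkv4-90 (chr6:68807179-68807256, minus strand): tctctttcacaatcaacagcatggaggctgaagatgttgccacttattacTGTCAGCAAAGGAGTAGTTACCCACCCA
Igkv14-130 (chr6:67791434-67791511, plus strand): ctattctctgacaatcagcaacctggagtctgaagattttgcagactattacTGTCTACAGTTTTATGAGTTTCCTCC
Igkv8-18 (chr6:70356368-70356445, plus strand): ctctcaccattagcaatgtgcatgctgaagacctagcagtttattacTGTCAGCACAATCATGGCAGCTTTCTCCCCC

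Of the lambda segments, Iglv1 and Iglv2 make up most of the lambda sum. They are 97.0% identical over the V exon, with 9 differing bases, whereas Iglv3 is only 54.0% identical to Iglv1.
Iglv1 (chr16:19085017-19085094, minus strand): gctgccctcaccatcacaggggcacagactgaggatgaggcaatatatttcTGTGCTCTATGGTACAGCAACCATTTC
Iglv2 (chr16:19260401-19260478, minus strand): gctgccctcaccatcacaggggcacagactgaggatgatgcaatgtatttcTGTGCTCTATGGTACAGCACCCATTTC

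Igkv5-39 was compared with its nearest relative, Igkv5-45, because reads from near-identical segments can be divided between entries by the estimation of levels. The 298 aligned bases of the V exon are 91.6% identical, and capitals here mark the 25 bases that differ.
Igkv5-39 (chr6:69900424-69900721, minus strand): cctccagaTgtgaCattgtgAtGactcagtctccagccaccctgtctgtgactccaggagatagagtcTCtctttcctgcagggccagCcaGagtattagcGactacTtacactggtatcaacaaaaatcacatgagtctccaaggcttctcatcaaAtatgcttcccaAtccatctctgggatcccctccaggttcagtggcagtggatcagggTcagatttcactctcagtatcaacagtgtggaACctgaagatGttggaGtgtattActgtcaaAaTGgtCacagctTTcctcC
Igkv5-45 (chr6:69775750-69776047, minus strand): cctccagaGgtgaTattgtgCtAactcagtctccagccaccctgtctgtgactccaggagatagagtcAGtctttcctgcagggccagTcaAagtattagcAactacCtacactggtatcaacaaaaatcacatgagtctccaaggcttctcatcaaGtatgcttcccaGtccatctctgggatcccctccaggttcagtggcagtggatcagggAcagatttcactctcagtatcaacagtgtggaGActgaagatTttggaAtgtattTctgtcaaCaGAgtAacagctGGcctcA

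The median identity of the 100 annotated Igkv genes to their nearest relative was 94.2% (range 65.6% to 99.0%), and 6 of them had a relative with at least 98% identity. Igkv8-18 was 97.8% identical to Igkv8-26 (7 differing bases), Igkv1-117 was 96.8% identical to Igkv1-110 (10 differing bases), and Igkv5-45 was 99.0% identical to Igkv5-43 (3 differing bases). Values of such pairs are uncertain to the extent that the estimation divided their reads.

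CD8 T-cell identity genes were high in every library. Cd8a lay at 179 FPKM in flow-through 1 and at 297 to 385 FPKM in the other libraries, and the summed level of 8 identity genes was 1280 in flow-through 1 against 2048 to 2578 elsewhere, so that flow-through 1 stood apart. Among B-cell surface genes, Ms4a1 was low in all 8 libraries (0.668 to 4.76 FPKM), whereas Cd79b lay at 11.2 to 28.2 FPKM. The summed level of a list of 10 B-cell genes ran from 27.7 to 93.2 FPKM. Against these, light-chain V segments made up 0.977% to 5.39% of the summed FPKM of a library. The depth estimated from the smallest steps of the values was about 14100000 to 17800000 fragments per library, at which 1 FPKM of an Igkv entry of median length corresponds to 5.09 to 6.41 fragments.

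The kappa segments were first described by how many of them were in use. Of the 160 Igkv entries, 98 had a mean of at least 1 FPKM over the 8 libraries, 10 lay above 0 but under that level, and 52 were listed at 0 in every library. This division followed the annotation. Among the 100 entries annotated as genes, 95 passed the filter and 2 were at 0 throughout, whereas among the 60 annotated as pseudogenes 3 passed (Igkv2-116, Igkv4-77 and Igkv4-56) and 50 were at 0. Pseudogenes held 0.0130% to 0.132% of the Igkv sum of a library.

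Usage was concentrated in few segments. There were 25 entries with a mean share of at least 1%, and the 5 highest entries of a library held between 33.0% and 52.7% of its Igkv sum. Igkv5-39 ranked first with a mean share of 15.96%, followed by Igkv14-126 (7.95%), Igkv1-117 (7.86%), Igkv1-110 (5.99%) and Igkv1-135 (4.53%). Igkv3-2 (2.49%), Igkv9-120, Igkv16-104, Igkv8-24 and Igkv10-96 completed the 10 highest. The leading segment was not the same in every library. It was Igkv1-110 in flow-through 1 (12.2%), Igkv1-117 in enriched 1 and in both libraries of mouse 3 (8.44% to 9.96%), and Igkv5-39 in all 4 libraries of mice 2 and 4 (18.8% to 33.7%).

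Igkv5-39 held 5.74%, 18.8%, 5.35% and 26.0% of the Igkv sum in flow-through 1 to 4 and 7.90%, 23.3%, 6.90% and 33.7% in enriched 1 to 4. In both fractions mice 2 and 4 were high and mice 1 and 3 low, and the fractions overlapped. Its level was 335, 4959, 579 and 5683 FPKM in flow-through 1 to 4 and 789, 8048, 1334 and 11496 FPKM in enriched 1 to 4. The shortest annotated transcript of Igkv5-39 has 287 bases, the shortest among the 10 segments with the highest shares, and 13 of the 98 segments above the filter have a transcript under 300 bases. FPKM divides by an effective length that is small for such transcripts, so the rank of a segment depends on its annotated length, while all libraries share that length.

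The question of how far the V mix belongs to the mouse, and how far to the fraction, was addressed by comparing the 2 fractions number by number. The shares of the fractions of 1 mouse overlapped by 86.0% to 91.8%, the overlap being the sum over segments of the smaller of the 2 shares. Libraries of different mice overlapped by 67.7% to 84.8% between the fractions and by 70.6% to 83.3% within a fraction. Thus every pair from 1 mouse was more alike than any pair from different mice, also when the different mice were compared within the same fraction.

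To remove what all mice share, each segment's log2(share in percent + 0.1) was set against the mean of its fraction, and the deviations were correlated across the 98 Igkv segments above the filter. Pearson's r between the fractions of the same mouse was 0.73, 0.86, 0.87 and 0.78 for mice 1 to 4, with a mean of 0.81. Between fractions of different mice r ranged from -0.64 to 0.04 with a mean of -0.27, where a negative mean follows from centering 4 libraries on their own mean. Each flow-through library was most like the enriched library of its own number. Of the 24 ways to pair the 4 numbers, the labelled pairing gave the highest mean r (exact one-sided permutation test, p = 0.0417, the smallest that 24 pairings allow). Segments are not independent replicates, since their shares sum to 100% within a library.

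**Figure D1:**
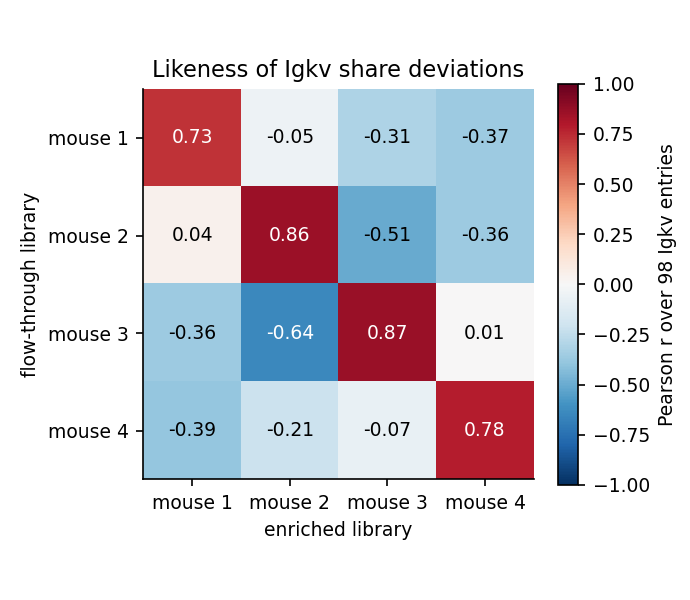
Pearson's r across 98 Igkv entries between the deviations of each flow-through library (rows) and each enriched library (columns) from their fraction means. The diagonal, which holds the libraries of the same mouse, lies between 0.73 and 0.87, and all other cells lie at or below 0.04.

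The same measure was taken over other genes as a description. For 99 heavy-chain V segments (Ighv) the mean r of the same number was 0.82, for 67 T-cell receptor alpha V segments (Trav) 0.24, for 22 beta V segments (Trbv) 0.30 and for 11877 genes outside the V segments 0.46. These sets differ in size and level, and no test of their differences was made. In all 5 sets the mean r of the same number was above that of different numbers, which ranged from -0.27 to -0.08. A number counted as matched when its flow-through and its enriched library were each most like the other among the libraries of the opposite fraction. This held for 4 of 4 numbers for Igkv, Ighv and Trav, for 3 of 4 for the genes outside the V segments and for 2 of 4 for Trbv. The highest r between different numbers was 0.37 for Trbv, above each r of the same number (at most 0.36), and 0.46 for the genes outside the V segments, where the r of the same number ran from 0.23 to 0.62.

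Another count, made without a correlation, was uneven between the mice. For 38 of the 98 Igkv segments (38.8%) the 2 libraries with the highest share came from 1 mouse, against 13.4% of all genes tested, ranked by FPKM. Ranked by FPKM, the Igkv count was 34.7%. Mouse 3 contributed 22 of the 38, mouse 1 contributed 8, and mice 2 and 4 contributed 4 each. In 9 of the 38, the lower library of that mouse exceeded every library of the other mice at least 2-fold.

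The segments that stood furthest above the other mice are described singly. Igkv4-90 held 0.402% and 0.491% of the Igkv sum in flow-through 3 and enriched 3, against 0.0460% to 0.0739% in the other 6 libraries. Igkv14-130 held 0.280% and 0.198% in mouse 1 and at most 0.0370% elsewhere. Igkv8-18 held 0.204% and 0.140% in mouse 2 and at most 0.0290% elsewhere, while its near-identical relative Igkv8-26 had a mean share of 0.00376%. In each of these segments both fractions of a single mouse lay several-fold above all other libraries.

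The pair Igkv3-1 and Igkv3-2, which neighbour each other at the end of the locus next to the J segments, behaved differently from mouse to mouse. Igkv3-1 held 0.787% and 0.680% in mouse 1 and at most 0.184% in the other mice. Igkv3-2 held 7.01% and 7.20% in mouse 2, then 2.11% and 2.33% in mouse 1, and 0.269% to 0.377% in mice 3 and 4. Mouse 2, with the most Igkv3-2, had only 0.0134% and 0.0205% of Igkv3-1, although the V exons of both are 92.9% identical. In FPKM, Igkv3-2 measured 1845 in flow-through 2 and 2490 in enriched 2 against 29.1 to 232 in the other 6 libraries.

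Igkv16-104 is the only entry of its family and held 3.89% and 3.87% in mouse 3 against 1.31% to 1.92% in the others. Igkv11-125 was an exception to the agreement of the fractions in size, though not in the mouse. It held 0.796% in flow-through 4 and 0.222% in enriched 4, with 0.0590% to 0.135% in the other libraries. Igkv1-110 was high in flow-through 1 alone, at 12.2% against 5.83% in enriched 1 and 3.73% to 6.56% in the other libraries.

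**Figure D2:**
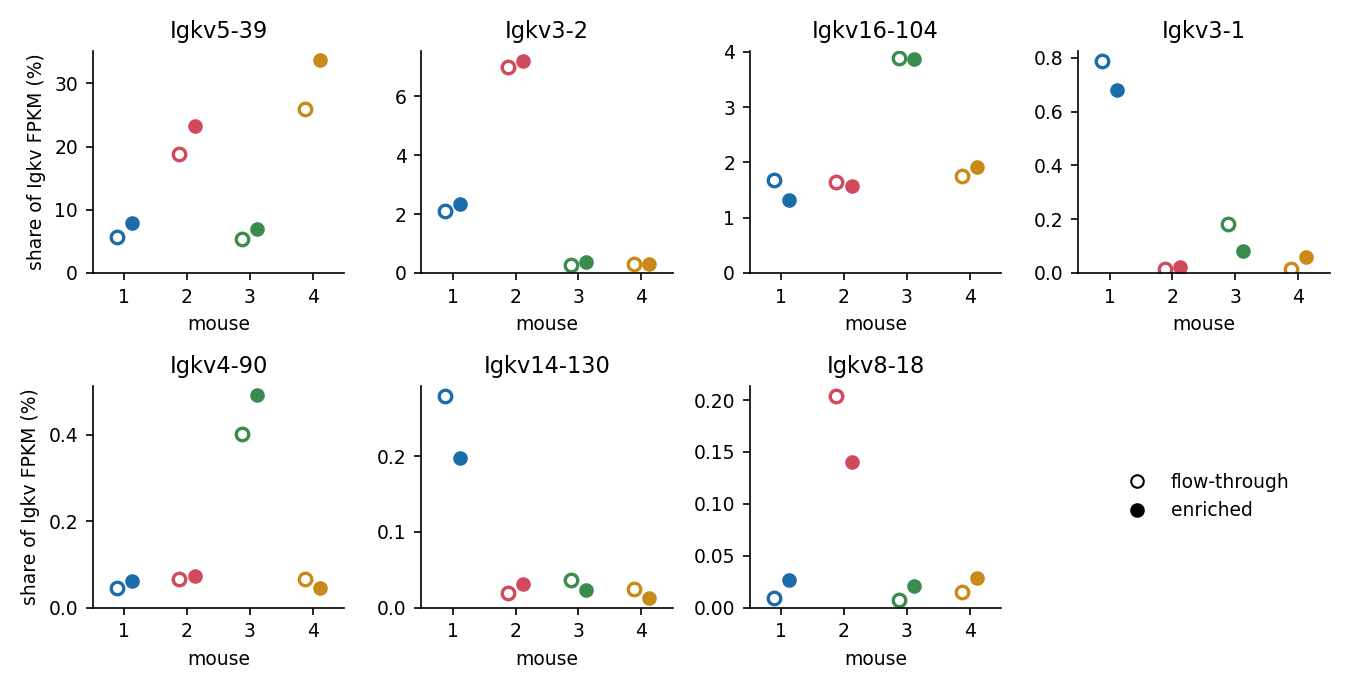
Share of the summed Igkv FPKM (%, each panel with its own axis from 0) of 7 segments in mice 1 to 4, with open points for flow-through and filled points for enriched libraries. Open and filled points of a mouse lie close together in some cases, such as 7.01% and 7.20% for Igkv3-2 in mouse 2. They lie further apart in others, such as 26.0% and 33.7% for Igkv5-39 in mouse 4. Igkv3-2, Igkv3-1, Igkv4-90, Igkv14-130 and Igkv8-18 were picked because both libraries of 1 mouse stood above the rest. Their pattern thus describes them and is not independent evidence.

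Next, the total amount of light-chain V RNA was compared between the fractions. The Igkv sum was 5830, 26337, 10807 and 21896 FPKM in flow-through 1 to 4 and 9983, 34603, 19321 and 34077 FPKM in enriched 1 to 4. Mice 2 and 4 were high and mouse 1 low in both fractions, and the fractions overlapped. Within a mouse the enriched library was higher by 1.71, 1.31, 1.79 and 1.56-fold, whereas between mice the sums spanned 4.52-fold within the flow-through and 3.47-fold within the enriched libraries. The mean log2 difference was 0.66 (exact two-sided permutation test of 4 against 4 libraries without regard to the mouse, p = 0.314, adjusted p = 0.724 over 4 tests). It was 0.25 without flow-through 1, 0.44 without enriched 2, 0.45 without enriched 4 and 1.04 without enriched 1, and 0.31 with T-cell scaling, which divides each library by the geometric mean of its 8 T-cell identity genes. Taken within mice by sign flips it was positive in 4 of 4 mice (exact p = 0.125, the smallest that 4 pairs allow).

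The Iglv sum was 587, 3395, 1153 and 2342 FPKM in flow-through 1 to 4 and 1033, 3135, 2316 and 3131 FPKM in enriched 1 to 4. The lambda sum was higher in the enriched library of 3 of 4 mice, with mouse 2 going the other way. Its mean log2 difference was 0.53 (exact two-sided permutation test, p = 0.543, adjusted p = 0.724), and ran from 0.073 without flow-through 1 to 0.92 without flow-through 2, with 0.18 under T-cell scaling. Lambda accounted for 9.97% ± 0.997 of the light-chain V FPKM of flow-through and 9.20% ± 1.11 of enriched libraries (SD, n = 4 each; exact two-sided permutation test, p = 0.371, adjusted p = 0.724). The evenness of the Igkv shares, which is 1 when all segments in use are equal, was 0.760 ± 0.0452 and 0.758 ± 0.0663 (SD, n = 4 each; exact two-sided permutation test, p = 0.943, adjusted p = 0.943). With Igkv5-39 left out, the difference in evenness changed sign to 0.0211 (p = 0.0571 by the same exact permutation).

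**Figure D3:**
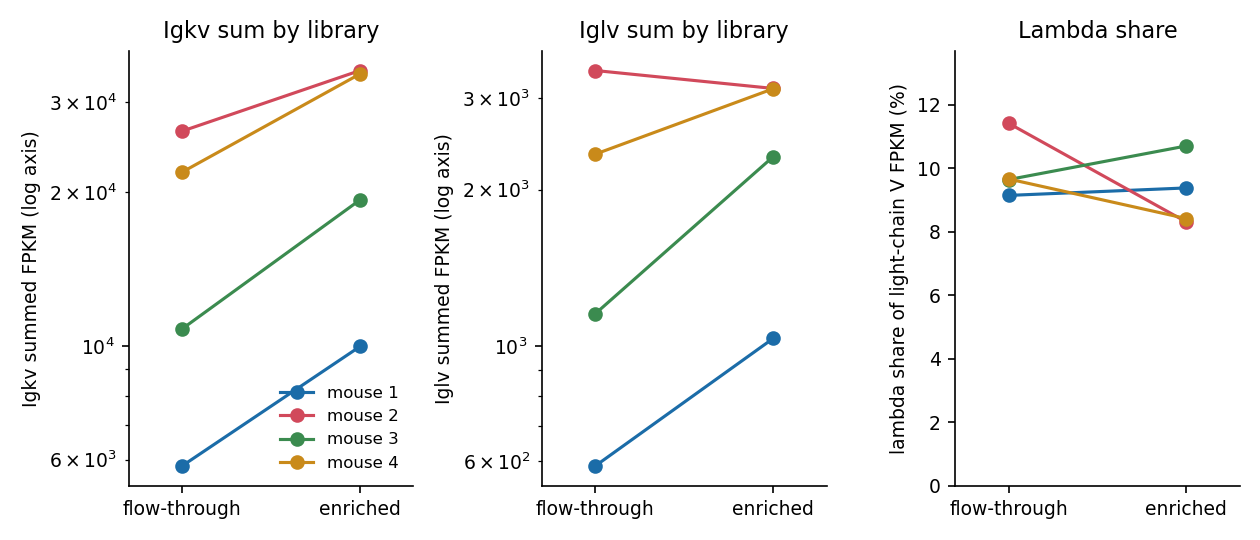
Summed FPKM of Igkv (left) and Iglv (middle) on log axes and the lambda share of light-chain V FPKM (right, %), with a line for each mouse from its flow-through to its enriched library. Every Igkv line slopes upward, by 1.31 to 1.79-fold, while the lambda share stays between 8.31% and 11.4%.

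Among single segments, 101 of the 163 (98 Igkv and 3 Iglv) passed the filter of a mean of at least 1 FPKM and were tested with limma on log2(FPKM + 1) over all 12166 genes. Without regard to the mouse, 0 of 101 segments were called higher and 0 lower in the IL-18Rα hi-enriched libraries (limma, Benjamini-Hochberg adjusted p under 0.05), beside 14.1% and 13.7% of all genes tested. At an unadjusted p under 0.05, 5 segments were above the flow-through (Igkv7-33, Igkv3-4, Igkv6-14, Igkv2-137 and Igkv6-32) and 1 below it (Igkv18-36), named here after their values were seen. A share of all genes at that unadjusted threshold is not given here, so these counts are not read as a result. The median log2 difference of the 101 segments was 0.66 and 96 of them were positive, beside a median of -0.02 over all genes. Without flow-through 2 the counts by adjusted p were 8 higher and 1 lower, beside 1802 and 1781 of the 12166 genes. Without enriched 1 they were 3 higher and 0 lower, beside 1560 and 1338 of the 12166 genes. Without flow-through 1, the library with the low T-cell sum, the median was 0.24.

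With the mouse as a block, which compares the fractions within each mouse, limma called 65 of the 101 segments higher and 1 lower by Benjamini-Hochberg adjusted p, where 22.2% of all genes were higher and 22.7% lower. The 65 included 20 of the 25 segments with a share of at least 1%, 2 of the 3 lambda segments and 1 of the 3 pseudogenes, and their log2 differences ran from 0.33 to 1.55 with a median of 0.75. Leaving out mouse 1, 2, 3 or 4 left 59, 68, 48 or 55 higher, beside 2519, 2397, 1841 or 2035 of the 12166 genes. With T-cell scaling, which moves the median log2 difference of all genes from -0.02 to -0.33, 15 segments were called higher, all of them among the 65, and 2 were lower (Igkv18-36 and Igkv6-29), where 5.23% of all genes were higher and 18.7% lower. Counted without a model, 62 of the 101 segments were higher in the enriched library of all 4 mice (29.2% of all genes). No segment had every enriched library above every flow-through library (16.4% of all genes), and 1 had every enriched library below (15.9% of all genes). That segment, Igkv18-36, passed the filter only through its flow-through values.

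Igkv5-39 showed a log2 difference of 1.04 in favor of the enriched fraction (SE 0.11 with the mouse as a block, limma adjusted p = 0.000745, higher in 4 of 4 mice), against an adjusted p of 0.541 without the block. Leaving out single libraries moved its log2 difference from 0.31 (without flow-through 1) to 1.70 (without enriched 1). When both libraries of 1 mouse were left out together it lay between 0.97 and 1.15, and it was 0.69 with T-cell scaling and the block (limma adjusted p = 0.00419). Igkv1-135 differed by 0.86 (SE 0.11, limma adjusted p = 0.00146 with the block), from 271, 1045, 514 and 754 FPKM to 582, 1468, 1025 and 1367 FPKM. Igkv2-137, named after its values were seen as the segment with the smallest p under the block, differed by 0.97 (SE 0.07, limma adjusted p = 0.000271). Igkv14-126 and Igkv10-96 were not called under the block, with log2 differences of 0.24 and 0.26 (limma adjusted p = 0.0878 and 0.234), although Igkv10-96 was called without mouse 2 (0.48, limma adjusted p = 0.0125).

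The segment that was lower, Igkv18-36, was listed at 0 in all 4 enriched libraries and at 1.11, 0.531, 1.67 and 9.80 FPKM in flow-through 1 to 4. It is the only entry of its family and held at most 0.0448% of a library's Igkv sum. It passed the filter of a mean of at least 1 FPKM through its flow-through values alone, mainly flow-through 4. Its calls therefore describe it and are not independent of the filter. Its adjusted p was 0.0506 without and 0.0216 with the block (limma), or 0.0560 with the block and without mouse 3, and at about 5 to 6 fragments per FPKM most of its values rest on few fragments.

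A difference of the whole class in FPKM need not change its mix, so the shares were compared within mice as well. Of the 98 Igkv segments, 13 had a higher share in the enriched library of all 4 mice and 10 a lower one in all 4. The others differed in direction between mice, with 26, 30 and 19 segments higher in 3, 2 and 1 mice. These counts were not tested, and with 4 mice some segments share a direction in all of them by chance. The share of Igkv5-39 was 1.24 to 1.38 times higher in the enriched library of each mouse, with means of 14.0% ± 10.2 and 17.9% ± 12.9 (SD, n = 4). Igkv14-126 went from 10.3%, 10.3%, 7.95% and 7.69% to 8.18%, 7.84%, 5.99% and 5.31%, lower in every mouse, with the lowest flow-through value below the highest enriched value. Igkv1-117 was also lower in 4 of 4 mice, at 0.679 to 0.982 times its flow-through share. Since shares sum to 100%, a higher share of Igkv5-39 comes with lower shares elsewhere.

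The V families, named by the digits before the hyphen, were compared in the same way. Igkv1 held a mean of 20.0% of the Igkv sum, Igkv5 19.3%, Igkv4 13.3%, Igkv14 10.2% and Igkv8 8.26%, and the other 15 families each held at most 5.17%. By exact two-sided permutation, 0 of 20 families differed between the fractions at an adjusted p under 0.05 (lowest adjusted p = 0.571). At an unadjusted p under 0.05 there was 1 family, Igkv18, which is Igkv18-36 alone. Its p of 0.0286 is the smallest that 70 arrangements allow by this permutation, and it adjusts to 0.571 over 20 families. The test thus could not call a single family, and the count of 0 says little about them. Igkv5 was higher in the enriched library of 4 of 4 mice (17.2% ± 9.69 against 21.5% ± 12.4, SD, n = 4). Igkv1 (21.5% ± 4.79 against 18.4% ± 3.96), Igkv14 (11.2% ± 1.92 against 9.17% ± 1.98) and Igkv15 (1.64% ± 0.398 against 1.31% ± 0.312) were lower in 4 of 4. Igkv4, the family with the most entries (33, of which 28 passed the filter), held between 10.4% and 17.6% in every library.

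Position in the locus was described from the annotation. The Igkv entries span chr6:67555497-70704177 (mm10), 3148681 bases, with Igkj1 at chr6:70722562-70722599 on the plus strand downstream of them. The 40 entries nearest to Igkj1 held 32.2% ± 9.48 of the flow-through Igkv sum and 37.3% ± 10.6 of the enriched one (SD, n = 4). The 40 farthest held 42.1% ± 5.75 and 36.8% ± 6.20. The next 40 and the 40 after those held 14.3% ± 2.59 and 15.0% ± 2.87, and 11.4% ± 2.45 and 10.8% ± 2.08. The farthest set holds Igkv14-126, Igkv1-117, Igkv1-110 and Igkv1-135, and the nearest holds Igkv5-39 and Igkv3-2. By strand, the 75 entries in the orientation of Igkj1 held 48.5% ± 6.14 and 43.3% ± 7.17, and the 85 in the opposite orientation, which join by inversion, held the rest. Segments with high shares thus lay at both ends of the locus. The fraction means of the ends differed by less than the SD between mice, but the ends were not compared within mice.

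**Figure D4:**
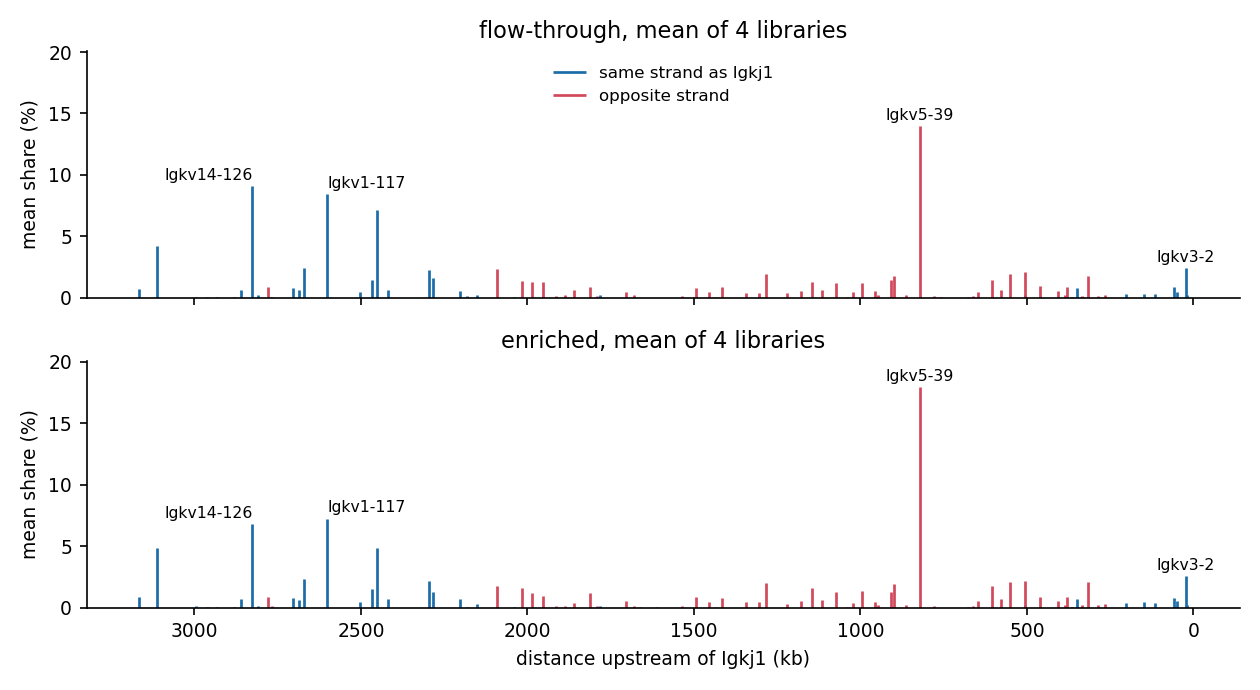
Mean share of the summed Igkv FPKM (%) of each Igkv entry against its distance upstream of Igkj1 (kb, decreasing to the right) in the 4 flow-through (top) and 4 enriched libraries (bottom), colored by strand. Igkv5-39 is the highest line in both panels, at 14.0% and 17.9%, and the lines of Igkv14-126 and Igkv1-117 are shorter in the lower panel.

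The lambda locus on chromosome 16 contributed 3 segments. Iglv1 held 63.3% to 73.0% of the lambda sum in every library, Iglv2 19.9% to 31.4% and Iglv3 3.84% to 7.19%. The ratio of Iglv2 to Iglv1 was 0.273, 0.355, 0.362 and 0.353 in flow-through 1 to 4 and 0.396, 0.496, 0.419 and 0.386 in enriched 1 to 4. It was higher in the enriched library of 4 of 4 mice, and the fractions did not overlap. This ratio was noticed in the data and not tested, and the 9 differing bases of the exons leave the division of reads between Iglv1 and Iglv2 uncertain. Under the block Iglv2 differed by 0.78 (SE 0.17, limma adjusted p = 0.0117) and Iglv3 by 0.51 (SE 0.15, limma adjusted p = 0.0292), while Iglv1 differed by 0.44 (SE 0.19, limma adjusted p = 0.0969). These calls turned on single mice. Without mouse 3 the limma adjusted p was 0.0503 for Iglv2 and 0.111 for Iglv3, without mouse 1 or 4 that of Iglv3 was 0.0792 or 0.0583, and without mouse 2 Iglv1 was called as well (0.01001). With T-cell scaling and the block, none of the 3 was called (0.111 for Iglv2, 0.576 for Iglv3 and 0.721 for Iglv1).

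Of the constant genes, to which V segments are spliced, Igkc followed the Igkv sum. Igkc measured 3222, 13927, 6212 and 11671 FPKM in flow-through 1 to 4 and 6077, 18780, 10882 and 17884 FPKM in enriched 1 to 4, and the ratio of Igkc to the Igkv sum stayed between 0.525 and 0.609. The lambda constant genes did not all follow the Iglv sum. In mouse 2 the enriched library had 0.923 times the Iglv sum of the flow-through. Iglc3 was 0.945-fold there, but Iglc1 was 1.05-fold and Iglc2 1.82-fold. Iglc1 divided by Iglv1 ranged from 0.526 to 0.764. Of the 5 constant genes, 4 were tested, of which 0 were called without the block (14.1% and 13.7% of all genes). With it 4 were called higher (22.2% of all genes). The fifth, Iglc4, was at 0 in 5 libraries and at most at 1.22 FPKM. All 9 J segments on the list, of 38 to 43 bases, were listed at 0 in every library, so that their use could not be read from these values.

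Markers of the cells that make light chains were set beside the V sums. The summed level of the plasma-cell list moved with them. Of 10 genes on that list, which was chosen with earlier results known, 2 were called higher without the block (Prdm1 and Irf4, regulators that activated T cells also use) and 9 with it, beside 14.1% and 22.2% of all genes. The gene not called was Fkbp11, with a log2 difference of -0.25, higher in the enriched library of 1 of 4 mice (limma adjusted p = 0.196 with the block). The list's summed level ran from 409 to 1467 FPKM over flow-through and from 727 to 1780 over enriched libraries, with the mice in the same order as by the Igkv sum in both fractions. Jchain, which joins antibody units into polymers, measured 272, 1171, 528 and 923 FPKM and then 493, 1381, 883 and 1355 FPKM, so that it made up most of the summed level of the list, and the Igkv sum divided by Jchain stayed between 20.2 and 25.1 in all 8 libraries. Xbp1, which drives the secretory program, differed by 0.70 and Mzb1, a chaperone of secretory B cells, by 0.73 under the block (limma adjusted p = 0.00197 and 0.00184).

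Of the genes on the plasma-cell and B-cell lists, the Igkv sum was divided by Jchain and Cd79a only. Cd79a did not keep such a ratio. Single genes of the lists went other ways. Over flow-through libraries Sdc1 of the plasma-cell list stayed at 6.71 to 8.25 FPKM, while Fcrla of the B-cell list ran from 1.54 to 5.32 FPKM. Of 10 genes on the B-cell list 7 were tested. Without the block 1 was higher (Cd22), beside 14.1% of all genes. With it 3 were higher and 1 lower (Cr2, a complement receptor of B cells), beside 22.2% and 22.7%. The summed level was 27.7 to 72.0 FPKM over flow-through and 43.5 to 93.2 over enriched libraries. Ms4a1 measured 0.880, 1.88, 4.76 and 3.13 FPKM in flow-through 1 to 4 and 0.668, 1.93, 2.35 and 4.64 FPKM in enriched 1 to 4, higher in the enriched library of 2 of 4 mice. The Igkv sum divided by Cd79a, a chain of the B-cell receptor, ranged from 600 to 2005. The surrogate light-chain genes Vpreb1, Vpreb2 and Igll1 and the recombinase genes Rag1 and Rag2, which serve B-cell precursors, were all below 1 FPKM in every library. On the same list Vpreb3 reached 1.81 FPKM, and Dntt, which adds bases at joins, lay between 1.27 and 3.92 FPKM in all 8 libraries.

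**Figure D5:**
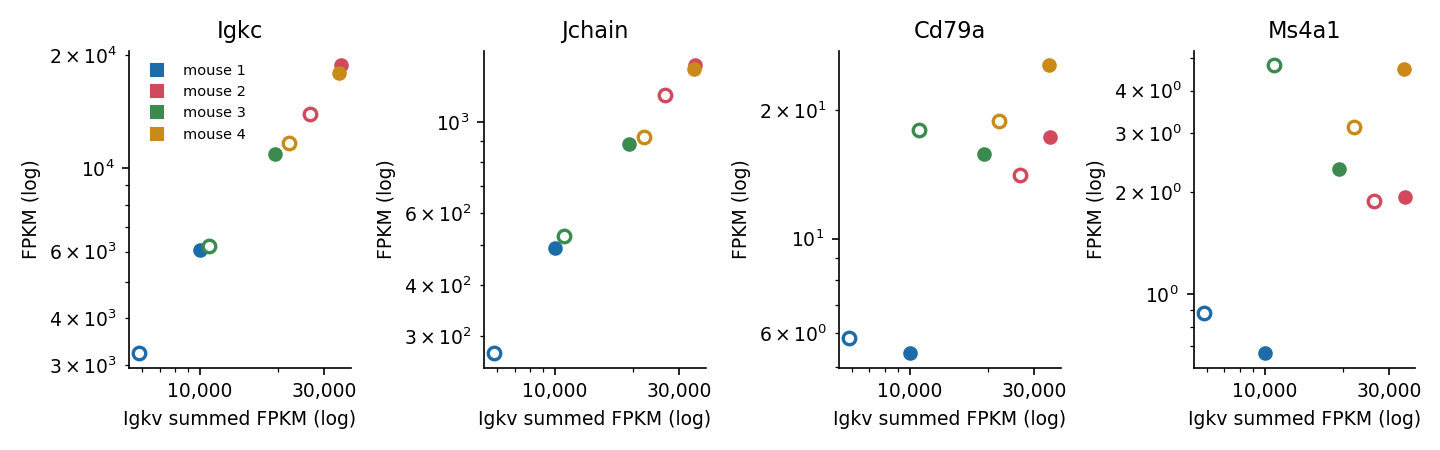
FPKM of Igkc, Jchain, Cd79a and Ms4a1 against the summed Igkv FPKM of the same library, both axes on log scales, with open points for flow-through, filled points for enriched libraries and a color for each mouse. Igkc and Jchain follow the Igkv sum across its range, with Igkc between 0.525 and 0.609 of it. Cd79a runs from 5.38 FPKM in enriched 1 to 25.5 FPKM in enriched 4. Ms4a1 is lowest in mouse 1, where the Igkv sum is low. It is highest in flow-through 3 (4.76 FPKM, at an Igkv sum of 10807 FPKM) and next in enriched 4 (4.64 FPKM, at 34077 FPKM).

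Of 12 listed regulators of light-chain transcription, 11 were in the table and 9 were tested. Without the block 2 were higher (Irf4 and Ikzf3), beside 14.1% of all genes. With it 4 were higher and 1 lower, beside 22.2% and 22.7% of all genes. Pou2af1, the B-cell coactivator of octamer sites, differed by 0.29 (limma adjusted p = 0.603, and 0.0739 with the block). Germinal-center genes gave 2 higher of 3 tested without the block (14.1% of all genes) and 3 with it (22.2% of all genes). Of the pro- and pre-B-cell list 1 gene was tested, Dntt. It was not called without the block (13.7% of all genes were lower) and was lower with it (22.7% of all genes). Other lineages moved in the same direction as the V sums. Without the block 3 of 6 myeloid, 3 of 4 NK-cell and 2 of 2 CD4 T-cell genes were higher in the enriched fraction (14.1% of all genes). With it 5, 3 and 2 were higher (22.2% of all genes). Lyz2 lay at 99.0 to 347 FPKM over flow-through and 338 to 811 FPKM over enriched libraries. The part of these cells, of flow-through 1 and of the column itself in the light-chain differences was not tested. Of the 8 T-cell identity genes, 1 was higher without and with the block (Zap70), beside 14.1% and 22.2% of all genes.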

How the data were processed

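RNA was sequenced from 8 libraries, 4 of the host CD8+ cells that the IL-18Rα column retained and 4 of its flow-through. Libraries were stranded, from poly(A) RNA, and read as 150 bp paired ends. The deposited values are FPKM, which the authors computed with Cufflinks 2.1.1 (with correction for multi-mapped reads and fragment bias) after mapping with TopHat to mm10; the annotation release is not given in the sources used here. Reads from close paralogs can be divided between entries, and strand was not stated to be used in counting.

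Segments were matched by symbol and their 163 identifiers to GENCODE M21, which gave coordinates, biotypes and transcript sequences. FPKM was not rescaled unless stated. The 12166 genes whose mean over all libraries reached 1 FPKM were tested on log2(FPKM + 1), on which folds of low genes are understated, with limma 3.58.1 in R 4.3.3, trend of variance on mean, and Benjamini-Hochberg adjustment with a threshold of 0.05. The fit has no block for the mouse, and the block is an alternative. The labels state that both fractions came from each mouse, and same-numbered libraries deviated together (r = 0.228 to 0.622 over 11877 genes outside antigen receptor V segments), so the numbers were read as pairs. Libraries of different numbers gave r = -0.592 to 0.455, and the own number was the best match in both directions in 3 of 4. The labels do not spell out that equal numbers are 1 mouse. Single values and family shares were compared by exact two-sided permutation of 4 against 4 libraries (70 arrangements, smallest p 0.0286). Named segments were the 10 highest by mean share, all Iglv, the highest of each library, and the 5 (mean of at least 5 FPKM) furthest above the others in 1 library or in 1 mouse; segments past the limma threshold would have been named too. The members, gene lists and tests were chosen with earlier results of these data known. The limma script was tested on simulated data. Depth was estimated from the values and no counting interval was applied. Identities and shares were computed with Python 3.11.15 and Biopython 1.88. Not every gene of a list is named, and the counts and sums of a list cover all of its members in the table.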

Additional observations from a re-analysis of the deposited data

Results flagged for a closer look

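In groups of 4 libraries, Dixon's ratio marked a highest or lowest library that lay far from the rest in 12 of 74 groups tested, where chance marks about 1 in 20, or 3.7 of 74. Libraries of 1 mouse were marked in both fractions for 3 segments. Igkv4-90 held 0.402% of the Igkv sum in flow-through 3 and 0.491% in enriched 3. Igkv14-130 held 0.280% in flow-through 1 and 0.198% in enriched 1. Igkv8-18 held 0.204% in flow-through 2 and 0.140% in enriched 2. In the other marked segments a single fraction passed the limit. Igkv3-1 was marked in enriched 1 (0.680%), Igkv16-104 in flow-through 3 (3.89%, which is also its whole family) and Igkv11-125 in flow-through 4 (0.796%). Of the families, Igkv2 was marked in enriched 1 (2.71% against 1.78% to 1.89% in the other enriched libraries) and Igkv8 in flow-through 3 (11.1% against 6.64% to 7.09%). These segments were named for standing above the other libraries, so the marks describe them and are not independent evidence.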

How the results depend on the processing

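The sums of Igkv and Iglv, the lambda share and the family count kept their direction and their side of the threshold under every alternative run, though their size moved (0.25 to 1.04 for Igkv and 0.073 to 0.92 for Iglv without 1 library). The replicate block changed the count of segments called from 0 higher and 0 lower to 65 and 1, and to 15 and 2 with T-cell scaling added. Without mouse 1, 2, 3 or 4 the blocked counts were 59, 68, 48 and 55 higher and 1 lower each. Over all 12166 genes those 4 fits called 2519, 2397, 1841 and 2035 higher and 2475, 2402, 1715 and 1897 lower. For the sums, the lambda share, evenness and the families the block was a sign flip over 4 pairs. Its smallest p is 0.125, so it could call none of them whatever the data. The added alternatives (block without each mouse, block with T-cell scaling, likeness without the 5 most particular segments) were chosen after seeing the data. Without the block, 1 segment was lower with T-cell scaling, B-cell scaling or a pseudocount of 0.1 (Igkv18-36 in each), beside 1085, 9 and 1653 of the 12166 genes. Leaving out a library gave 0 to 8 higher and 0 to 1 lower, beside 1124 to 1802 and 940 to 1781 of the 12166 genes. Evenness reversed to 0.0211 without Igkv5-39 and ranged from -0.0224 to 0.0245 when a library was left out. Same-number likeness was 0.681 to 0.812 over other measures and filters and 0.727 without the 5 most particular segments (exact p = 0.0417 each), and 0.778 to 0.840 without 1 number, where 6 pairings allow no p under 0.167. With T-cell scaling the log2 difference reversed for Igkv1-110 (-0.13), Igkv10-96 (-0.081), Igkv11-125 (-0.29), Igkv14-126 (-0.10) and Igkv14-130 (-0.025). Leaving out a library reversed Igkv10-96 (-0.022 to 0.61), Igkv11-125 (-0.53 to 0.99), Igkv14-126 (-0.11 to 0.62), Igkv14-130 (-0.092 to 0.69), Igkv3-2 (-0.27 to 2.04), Iglc1 (-0.044 to 0.66) and Iglv1 (-0.0058 to 0.82), none of which was called in these fits. The causes were not tested. Depth limits Igkv18-36 and other segments of a few FPKM most.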
